A study of Mus musculus with 3 samples.

Results

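Genes of G protein and cyclic AMP signalling were compared between islet cells of NOD mice given as knockouts of the endoplasmic reticulum stress sensor IRE1α and those of a floxed control mouse. The members were chosen by gene name alone: numbered G protein-coupled receptors (Gpr), G protein subunits (Gna, Gnb, Gng), regulators of G protein signalling (Rgs), adenylyl cyclases (Adcy), phosphodiesterases (Pde) and the subunits of protein kinase A (Prkac, Prkar). Gnb2l1, which encodes a ribosome-associated scaffold, was left out. The rule found 56 distinct genes among the 8237 that the authors' deposited tables list, namely 55 of 8193 in beta cells, 1 of 186 in alpha cells and 2 of 231 in delta cells. The same names cover 175 protein-coding genes in GENCODE M21, and those outside the tables were not analysed here.

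The control was 1 mouse labelled IRE1αfl/fl and the knockout group 2 mice labelled IRE1αβ-/-. All 3 were NOD/ShiLtJ, a strain that develops autoimmune diabetes, were 5 weeks old and were given tamoxifen at 10 mg per ml on 5 days. Which promoter drives the Cre recombinase is not given in the sources used here. Islets were cultured overnight, dissociated and profiled in droplets, and each unique molecular identifier (UMI) stands for 1 captured transcript. Values are mean UMIs per cell. The beta-cell table covers 829 control cells and 815 knockout cells, the latter pooled over both mice, with 31552 and 24796 listed UMIs per cell. The alpha-cell table covers 142 control cells and 304 and 177 knockout cells, and the delta-cell one 101 control cells and 138 and 78 knockout cells. A higher mean can come from more cells with the transcript or from more transcripts per cell, which cannot be told apart here.

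A hormone or metabolite that binds a receptor of this class makes it exchange GDP for GTP on a Gα subunit, which parts from its Gβγ partner. Gs stimulates adenylyl cyclase, Gi, Go and Gz restrain it, Gq acts through phospholipase C, and RGS proteins end the signal by speeding GTP hydrolysis. Cyclic AMP frees the catalytic subunits of protein kinase A (PKA) from the regulatory subunits, and phosphodiesterases degrade it. In beta cells this pathway is known for amplifying glucose-stimulated insulin secretion in response to incretin hormones, and Gi-coupled receptors for adrenaline and somatostatin are known to dampen it.

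Most of the members had more UMIs per knockout beta cell. Regulators of G protein signalling, at 2.22, and adenylyl cyclases, at 2.12, had the highest median ratios among the steps. The cyclase median takes Adcy1, which had no control UMI, at a floor of 3 control UMIs, so the order of this pair is not settled. By summed UMIs the ratios were 1.72 for the regulators and 1.99 for the cyclases. Rgs16 had a ratio of knockout over control of 5.14, Gng13 of 5.00 and Gnai1 of 3.45, while the abundant subunits Gnas, Gnai2, Gnb1, Gnb2, Gng5 and Gng12 had ratios from 1.06 to 1.47. Prkar1a, the main regulatory subunit of PKA in these cells by UMIs, and Gng4 were the 2 members with fewer UMIs per knockout cell, at 0.912 and 0.895, but were higher when scaled to the listed total. There was 1 control mouse, so no difference could be tested between genotypes, and a fold of at least 1.5 was used in place of a test. Of the 55 members, 2 were lower by any amount (5.04% of all listed genes) and the other 53 higher, 33 of them by at least 1.5-fold (45.7% of all listed genes). None was at least 1.5-fold lower, against 2.47% of all listed genes. The median ratio was 1.61 over the members and 1.45 over all listed genes, a log2 of 0.69 and 0.54. Brackets give the exact 95% interval of a ratio, which covers counting error only and not the spread between mice.

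**Figure D1:**
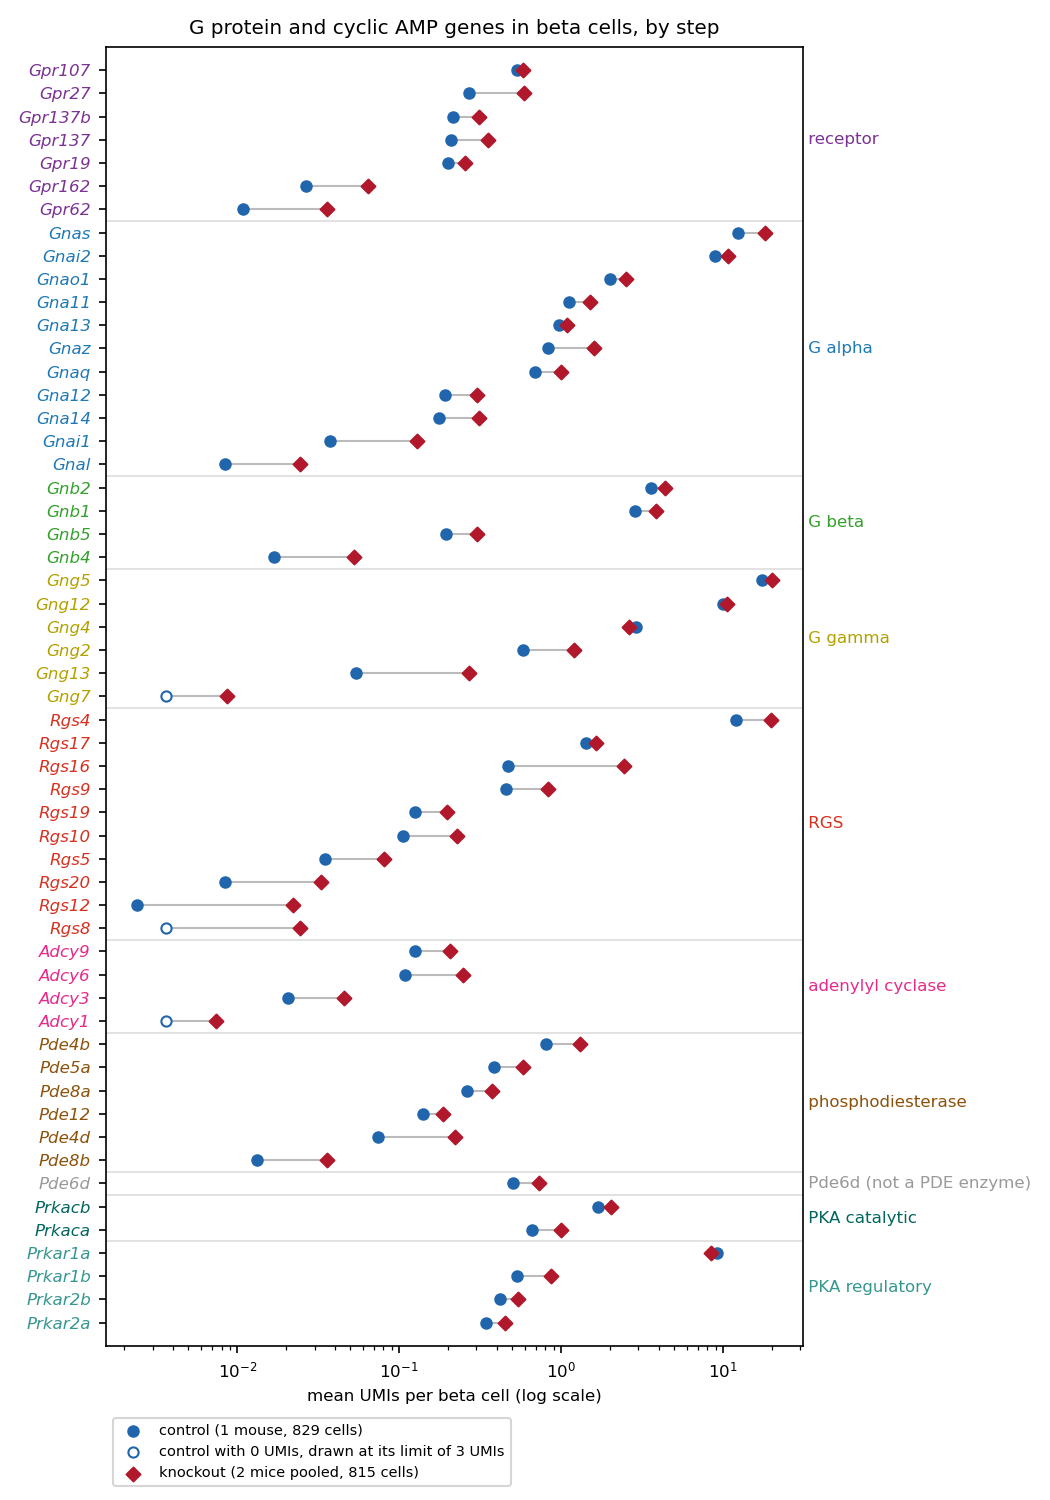
Mean UMIs per beta cell (horizontal axis, log scale) of the 55 members, grouped by step, in the control mouse (circles) and in the pooled knockout mice (diamonds). The knockout lies to the right of the control for all but Gng4 and Prkar1a (which are higher when scaled to the listed total; 6 others turn lower when Ins1, Ins2 and Iapp are left out of it and 17 relative to the median of all listed genes), and Rgs16 and Gng13 have the widest spacing among genes over 0.05 UMIs per control cell.

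Rarer genes had higher ratios over the whole table, so the members are given by level. Of the 15 members under 0.1 UMIs per control cell, all were at least 1.5-fold higher, as were 93.9% of the listed genes at that level. The table holds only genes that passed the authors' limit on adjusted p, which a gene with few UMIs can hardly do without a large difference. Passing 1.5-fold at that level is therefore no result about the members. From 0.1 to 1 UMI, 17 of 27 members passed, against 37.0% of listed genes, with a median ratio of 1.56 against 1.41. Over 1 UMI, 1 of 13 members passed, against 12.3%, with a median ratio of 1.20 against 1.17. The members above 1 UMI per cell thus lay near the rest of the table, and the 1 that passed was Rgs4.

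The whole interval lay above 1.45, the median of all listed genes, for 17 of the 52 members that had an interval (22.4% of the 8090 listed genes that had one). RGS genes made up 7 of the 17. The other 10 were Gnaz, Gnai1, Gnb4, Gng2, Gng13, Adcy6, Pde4b, Pde4d, Gpr27 and Gpr62. Of the 17, Gnai1, Gnb4, Gng13, Pde4d, Gpr62, Rgs5, Rgs12 and Rgs20 had under 0.1 UMIs per control cell. The median ratio of listed genes at that level was 2.37. The share of them with a larger ratio ran from 4.23% for Rgs12 to 33.2% for Pde4d and 53.5% for Rgs5. For 12 members the whole interval lay below 1.45, the median of all listed genes (27.9% of the 8090 genes). These were Gnai2, Gnao1, Gna13, Gnb1, Gnb2, Gng4, Gng5, Gng12, Prkacb, Prkar1a, Rgs17 and Gpr107. That median covers genes of every level, and 10 of the 12 had over 1 UMI per control cell, where the median ratio was 1.17. Among the 1438 listed genes of that level, 23.9% had a larger ratio than Gnb1, 35.8% than Gnao1, 42.7% than Gnb2, 45.1% than Gnai2 and 47.1% than Prkacb, so that these 5 lay in the upper part of their level. Gng5, Gng12, Gng4, Prkar1a and Rgs17 lay in the lower part. The interval of the remaining 23 spanned it, and 3 had no control UMI.

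**Figure D2:**
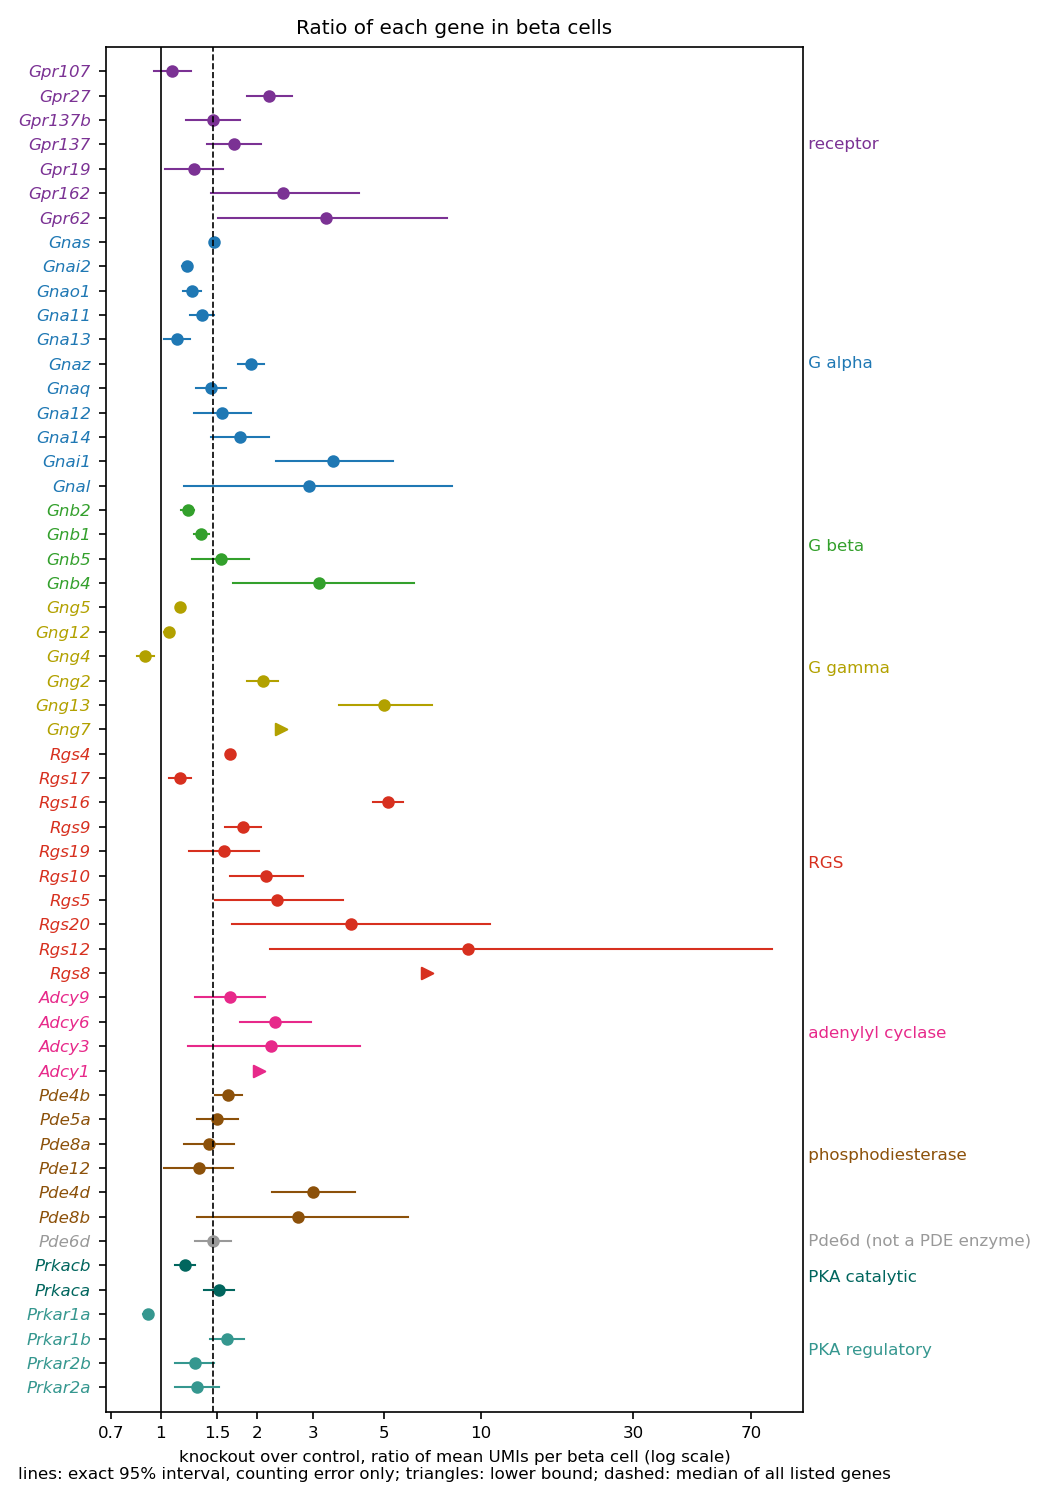
Ratio of mean UMIs per beta cell, knockout over control (horizontal axis, log scale), with its exact 95% counting interval (lines), for each member by step. Triangles are lower bounds for genes with no control UMI, the solid line marks a ratio of 1 and the dashed line the median of all listed genes at 1.45. The RGS genes sit mostly to the right of the dashed line, the abundant G gamma genes and Prkar1a to its left.

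At the receptor step, 7 of the 73 annotated genes named Gpr with a number were listed, all at low levels of at most 0.537 UMIs per control cell. Gpr27, a receptor without a settled ligand that is expressed in brain and islets, had 0.269 UMIs per cell in control and 0.587 in knockout mice, so that its ratio was 2.18 [1.86 to 2.57]. Gpr137 went from 0.207 to 0.352 and its relative Gpr137b from 0.215 to 0.313, ratios of 1.70 [1.40 to 2.06] and 1.46 [1.20 to 1.77]. Products of this pair sit on lysosomal membranes and are not typical hormone receptors. Gpr107, a Golgi protein, was the most abundant of the 7 and differed least, at 0.537 and 0.584 UMIs per cell, with an interval that spanned 1 [0.954 to 1.24]. Gpr19 had a ratio of 1.27 [1.03 to 1.57]. The orphan receptor genes Gpr162 and Gpr62 had ratios of 2.40 and 3.28 but rested on 22 and 9 control UMIs.

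Of 49 other islet receptor genes on a fixed list, 11 were listed in beta cells, 10 of them higher and 7 at least 1.5-fold so (45.7% of all listed genes passed). Gipr, the receptor of the incretin GIP, was the exception at 0.221 and 0.0687 UMIs per cell, with a ratio of 0.311 [0.226 to 0.422]. Its Gs-coupled relative Gcgr, the glucagon receptor, went from 0.0929 to 0.158, a ratio of 1.70 [1.28 to 2.29]. Among Gi-coupled receptors, Adra2a, which binds adrenaline, had 0.992 and 1.13 UMIs per cell, and the somatostatin receptor gene Sstr3, on 663 and 698 UMIs, had a ratio of 1.07 [0.962 to 1.19]. The fatty acid receptor genes Ffar2 and Ffar4 had ratios of 1.69 [1.52 to 1.89] and 3.46 [2.51 to 4.84]. Ffar4 is also a delta-cell marker, and the 4 listed delta-cell markers, with Ffar4 among them, summed to 39.7 UMIs per beta cell in control and 64.8 in knockout mice. The part of such RNA in these receptor values was not tested. Ptger3 had no control UMI and was at least 9.15-fold higher when the control is set to a floor of 3 UMIs over all its cells. Glp1r and Ffar1 were not analysed here.

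All 11 listed Gα genes were higher per knockout cell, 5 of them at least 1.5-fold (45.7% of all listed genes). Among these, Gnai1 and Gnal lay under 0.1 UMIs per control cell, where 93.9% of listed genes passed. Gna13 was lower when scaled to the listed total without the 3 hormone genes Ins1, Ins2 and Iapp. Relative to the median of all listed genes, Gna11, Gna13, Gnai2, Gnao1 and Gnaq were lower. By class, the Gs genes summed to 12.3 UMIs per cell in control and 18.1 in knockout mice, with a ratio of 1.47 [1.43 to 1.51]. The Gi, Go and Gz genes summed to 11.8 and 15.0, a ratio of 1.27 [1.24 to 1.30], and the Gq genes to 1.99 and 2.81, a ratio of 1.41 [1.33 to 1.51]. Gna12 and Gna13 summed to 1.16 and 1.38. Among the 1438 listed genes over 1 UMI per control cell, where the median ratio was 1.17, 13.8% had a larger ratio than Gnas.

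Gnas (ENSMUSG00000027523, mm10 chromosome 2), which encodes the stimulatory Gαs, carried nearly all of the Gs sum, with 12.3 and 18.0 UMIs per cell. Its locus also makes other imprinted transcripts, and an annotated antisense gene, Nespas, overlaps it. Without the strand setting of the counting, their reads cannot be told apart. Gnai2 went from 8.91 to 10.7 UMIs per cell, which gave a ratio of 1.20 [1.17 to 1.24], and Gnao1 from 1.99 to 2.50. The rarer members of the inhibitory class differed more, as rarer genes did over the whole table. Gnaz, whose product couples to cyclase inhibition and is slow to turn off, went from 0.831 to 1.59, a ratio of 1.91 [1.74 to 2.10]. Gnai1 went from 0.0374 to 0.129, a ratio of 3.45 [2.29 to 5.32]. Among listed genes of the same level, 8.84% had a larger ratio than Gnaz, 24.6% than Gnai1 and 45.1% than Gnai2. In the Gq class, Gna14 had a ratio of 1.76 [1.43 to 2.18], Gnaq of 1.44 [1.29 to 1.60] and Gna11 of 1.34 [1.23 to 1.46]. Gna12 was at 1.56 [1.27 to 1.91] and Gna13 at 1.12 [1.02 to 1.24]. Gnal, the olfactory form of Gαs, had 7 control and 20 knockout UMIs.

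Among the Gβ genes, the abundant pair differed less than the rare pair, as abundant genes did over the whole table. Gnb2 went from 3.58 to 4.35 UMIs per cell and Gnb1 from 2.87 to 3.85, ratios of 1.21 [1.16 to 1.27] and 1.34 [1.27 to 1.41], although both were lower relative to the median of all listed genes. Gnb5, which partners RGS proteins of the R7 family, was at 1.54 [1.26 to 1.89]. Gnb4 rested on 14 and 43 UMIs and was at 3.12 [1.68 to 6.18]. Among listed genes of the same level, 23.9% had a larger ratio than Gnb1, 42.7% than Gnb2, 32.1% than Gnb5 and 30.2% than Gnb4.

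The Gγ genes held most UMIs of any step in the control, and they differed from one another more than the Gβ genes did. Gng5 went from 17.4 to 20.0 UMIs per cell and Gng12 from 10.0 to 10.6, ratios of 1.15 [1.12 to 1.18] and 1.06 [1.03 to 1.09], but both were lower when scaled without the 3 hormone genes. Gng4 was lower per cell, with 2.91 and 2.61 UMIs and a ratio of 0.895 [0.844 to 0.95], although it was higher when scaled to the listed total. Gng2 went the other way, from 0.578 to 1.20, a ratio of 2.08 [1.86 to 2.33]. Gng13, known from taste cells and neurons, went from 0.0543 to 0.271, a ratio of 5.00 [3.61 to 7.05] on 45 and 221 UMIs. As a share of the listed Gγ UMIs, Gng4 went from 9.41% to 7.52%, Gng2 from 1.87% to 3.47% and Gng13 from 0.175% to 0.782%. Gng7 had no control UMI and 7 knockout UMIs, at least 2.37-fold higher against the floor. An annotated gene, Chtf18, overlaps Gng13, so that reads of either could be assigned to the other.

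Of the 10 RGS genes listed in beta cells, 9 were at least 1.5-fold higher per cell (45.7% of all listed genes). Among these, Rgs5, Rgs8, Rgs12 and Rgs20 lay under 0.1 UMIs per control cell, where 93.9% of listed genes passed. At that level, 53.5% of listed genes had a larger ratio than Rgs5 and 19.8% than Rgs20. For Rgs8 and Rgs12 the shares were 7.44% and 4.23%. Rgs17 was lower when the listed total without the 3 hormone genes was the scale. Rgs16 (ENSMUSG00000026475, chromosome 1, 153740349 to 153745468) encodes a GTPase accelerator for Gi and Gq that is known to be induced in developing and growing islets. It went from 0.473 to 2.43 UMIs per cell, and the ratio was 5.14 [4.61 to 5.74] on 392 and 1980 UMIs. Among the 4887 listed genes with 0.1 to 1 UMI per control cell, 3 had a larger ratio. As a share of the listed RGS UMIs, Rgs16 went from 3.25% to 9.68%.

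Rgs4 (ENSMUSG00000038530, chromosome 1, 169741477 to 169747642), whose product limits muscarinic signalling in beta cells, was by far the most abundant RGS gene. It went from 11.9 to 19.6 UMIs per cell, with a ratio of 1.64 [1.60 to 1.69], and 7.09% of the 1438 listed genes over 1 UMI per control cell had a larger ratio. Rgs4 and Gnas together made up 46.8% of the 28.7 UMIs per cell by which the summed members differed. Rgs9, a member of the R7 family that pairs with Gβ5, went from 0.457 to 0.825, a ratio of 1.80 [1.59 to 2.05]. Rgs17, which acts on Gz, was the exception among the RGS genes, at 1.41 and 1.63 UMIs per cell and a ratio of 1.15 [1.06 to 1.25].

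The other RGS genes were rare. Rgs10 and Rgs19 had ratios of 2.14 [1.65 to 2.79] and 1.57 [1.22 to 2.03]. Rgs20, with 7 control UMIs, was at 3.92 [1.67 to 10.7], and Rgs12, with 2, at 9.15 [2.19 to 81.4]. Rgs8 had no control UMI and 20 knockout UMIs, at least 6.78-fold higher against the floor. Rgs5 is also known as a pericyte marker and went from 0.0350 to 0.0810 UMIs per cell. All 5 listed genes of the mesenchymal and pericyte list, with Rgs5 among them, were higher in the knockout, and they summed to 0.0591 and 0.239 UMIs per cell. Their part in the Rgs5 value was not tested.

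Several members are neighbours on the chromosome. Rgs8 and Rgs16 lie 40025 bases apart on chromosome 1 and point the same way, with ratios of 6.78 against the floor and of 5.14. Rgs5 and Rgs4 lie 45663 bases apart on the same chromosome, and Gnaq and Gna14 48298 bases apart on chromosome 19. Rgs9 and Gna13 lie 64701 bases apart on chromosome 11 with ratios of 1.80 and 1.12. No other members lay within 200000 bases of each other.

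**Figure D3:**
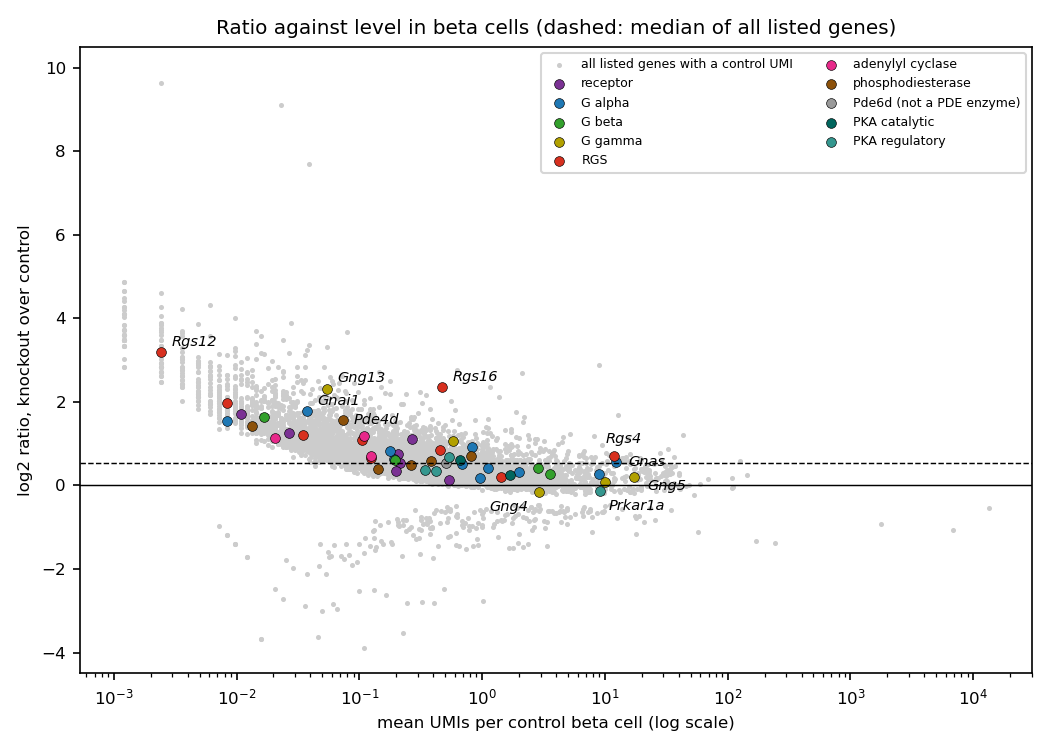
The log2 ratio of knockout over control (vertical axis) against mean UMIs per control beta cell (horizontal axis, log scale) for all listed genes with a control UMI (grey) and the members (coloured by step). Rgs16 lies near the upper edge of the genes at its level, while Prkar1a and Gng4 lie just above a band without listed genes.

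All 4 listed adenylyl cyclase genes, which encode the enzymes that make cyclic AMP, were at least 1.5-fold higher, at levels of at most 0.125 UMIs per control cell. The share was 45.7% over all listed genes and 93.9% under 0.1 UMIs per control cell, where Adcy3 and Adcy1 lay. Among listed genes of the same level, 3.48% had a larger ratio than Adcy6, 21.5% than Adcy9 and 56.6% than Adcy3. Adcy6, a cyclase inhibited by calcium, went from 0.109 to 0.247 UMIs per cell, which gave a ratio of 2.27 [1.76 to 2.95]. Adcy9 had a ratio of 1.64 [1.28 to 2.12] and Adcy3 of 2.21 [1.22 to 4.19] on 17 and 37 UMIs. Adcy1 had 0 and 6 UMIs, at least 2.03-fold higher against the floor. Summed over the 4 genes, the ratio was 1.99 [1.68 to 2.36]. Adcy5 and Adcy8 were not analysed here.

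The phosphodiesterase genes were all higher per cell too, 4 of 6 by at least 1.5-fold (45.7% of all listed genes). Their summed ratio was 1.61 and their median ratio 1.56, against a median of 1.45 over all listed genes. Pde8a and Pde12 were lower relative to that median of all listed genes. Pde4b and Pde4d encode enzymes specific for cyclic AMP. Pde4b went from 0.808 to 1.31 UMIs per cell, and the ratio was 1.62 [1.47 to 1.79], and Pde4d from 0.0736 to 0.220, a ratio of 2.98 [2.22 to 4.06]. Pde8a and Pde8b, also specific for cyclic AMP, were at 1.41 [1.18 to 1.69] and 2.68 [1.30 to 5.95], the latter on 11 and 29 UMIs. Pde4d and Pde8b lay under 0.1 UMIs per control cell, where 93.9% of listed genes were at least 1.5-fold higher. Pde5a, which degrades cyclic GMP, was at 1.5 [1.30 to 1.74]. Pde12 encodes a mitochondrial enzyme that trims RNA tails and does not act on cyclic nucleotides in this pathway, and it was at 1.31 [1.02 to 1.69]. Pde6d, a carrier of prenylated proteins, shares only the name and was at 1.46 [1.28 to 1.65]. The listed genes for synthesis and breakdown of cyclic AMP were thus all higher per cell. Only 5.04% of all listed genes were lower, so this direction does not set these steps apart. The enzyme activities were not measured.

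In PKA, the main regulatory subunit gene, Prkar1a, was lower per cell and the other subunit genes were higher. Relative to the median of all listed genes, Prkacb, Prkar2a and Prkar2b were lower as well, at log2 values of -0.29, -0.16 and -0.19, against -0.67 for Prkar1a. Prkar1a (ENSMUSG00000020612, chromosome 11), which holds the kinase inactive until cyclic AMP binds, was lower per cell, with 9.21 and 8.39 UMIs and a ratio of 0.912 [0.882 to 0.942], although it was higher when scaled to the listed total. Its close relative Prkar1b went from 0.534 to 0.861, a ratio of 1.61 [1.43 to 1.82]. Prkar2a and Prkar2b, whose products are held at membranes by anchoring proteins, were at 1.30 [1.11 to 1.52] and 1.28 [1.11 to 1.47]. Prkaca and Prkacb, the catalytic subunit genes, went from 0.660 to 1.00 and from 1.70 to 2.02, ratios of 1.52 [1.36 to 1.70] and 1.19 [1.11 to 1.28], although Prkacb was lower when scaled without the 3 hormone genes. Summed regulatory over summed catalytic UMIs came to 4.46 [4.24 to 4.69] in control and 3.39 [3.24 to 3.54] in knockout beta cells. This quotient does not depend on the scaling between groups, although each gene's capture can differ.

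The direction of several members depended on the scaling. Per cell and relative to the median of all listed genes, Prkar1a and Gng4 were lower in the knockout, with centred log2 values of -0.67 and -0.70, while scaled to the listed total both were higher, at log2 values of 0.21 and 0.19. With Ins1, Ins2 and Iapp left out of that total, both were lower, at -0.40 and -0.43. With the same 3 genes left out, 6 members that were higher per cell became lower, and their log2 values were -0.19 for Gng12, -0.15 for Gpr107, -0.10 for Gna13, -0.07 for Gng5, -0.06 for Rgs17 and -0.01 for Prkacb. Relative to the median of all listed genes, 17 members that were higher per cell were lower, which were these 6 and Gna11, Gnai2, Gnao1, Gnaq, Gnb1, Gnb2, Gpr19, Pde12, Pde8a, Prkar2a and Prkar2b. The listed total had a knockout-over-control ratio of 0.786, and of 1.20 without those 3 genes, which made up 69.9% of listed UMIs in control cells and 53.9% in knockout cells. Among listed genes over 1 UMI per control cell, none had a ratio between 0.727 and 0.848, and Prkar1a and Gng4 lay above that gap. The members together made up 0.305% and 0.504% of listed UMIs in control and knockout cells, or 1.01% and 1.09% of those left without the 3 genes.

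The bases before the transcription start of these genes were read for the element that CREB, the transcription factor activated by PKA, is known to bind. RefSeq promoters (GRCm38.p6, the C57BL/6J reference) were at hand for 47 of the 56 members, with 85 starts in all, and the 250 bases before each start were searched on both strands. The full palindrome TGACGTCA was in 1 of the 47 genes, Prkar1a (6 starts), against 3.26% of listed beta-cell genes and 1.77% of all genes with a promoter. Its core TGACG, which also lies within the full palindrome, was in 17 of 47 (36.2%), against 31.2% and 19.8%. TGACGTGG, a site type known for XBP1, which contains the same core, was in none, against 0.820% and 0.603%. These are shares of genes, and a gene with more starts had more bases searched. The 47 members had 85 starts, and the 6340 listed beta-cell genes with a promoter had 8239. Per start, the core was in 24.7% for the members, 26.8% for listed beta-cell genes and 17.8% for all genes. A match describes letters only, and binding was not measured. The windows below show the Prkar1a palindrome, the paired cores of Gng4, the other member with fewer UMIs per knockout beta cell, and a core each for Rgs4 and Rgs2, the members listed in more than 1 cell type, with every match in capitals. They lie at chr11:109650860-109650920 (plus strand), chr13:13784216-13784300 (plus), chr1:169747739-169747823 (minus) and chr1:144004172-144004256 (minus), and the marked letters begin 49, 51, 141 and 67 bases before a start.
Prkar1a: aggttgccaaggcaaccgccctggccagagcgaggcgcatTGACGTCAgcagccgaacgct
Gng4: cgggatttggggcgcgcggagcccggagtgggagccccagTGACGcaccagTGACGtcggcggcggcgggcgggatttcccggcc
Rgs4: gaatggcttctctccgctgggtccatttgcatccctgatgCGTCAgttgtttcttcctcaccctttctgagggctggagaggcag
Rgs2: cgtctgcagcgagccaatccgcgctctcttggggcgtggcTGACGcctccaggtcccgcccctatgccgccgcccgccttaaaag

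Other genes of the pathway, taken from lists made by function, were mostly higher as well, and 5.04% of all listed genes were lower. Of 35 effectors and regulators of cyclic AMP, 15 were listed, all higher and 5 by at least 1.5-fold (45.7% of all listed genes). Their median ratio was 1.29, below that of all listed genes. Pkig and Pkib, inhibitors of the PKA catalytic subunit, stood highest among those over 0.1 UMIs per control cell. Pkig went from 0.813 to 1.67 UMIs per cell and Pkib from 0.215 to 0.443, ratios of 2.06 [1.87 to 2.26] and 2.06 [1.72 to 2.48]. Creb1 and its coactivator genes Crtc2 and Crtc3 had ratios of 1.22, 1.29 and 1.25, and Ppp1r1a, a PKA-controlled phosphatase inhibitor that is abundant in beta cells, had 3.03 and 3.09 UMIs per cell.

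Of 18 genes for receptor desensitisation and G protein handling, 9 were listed, all higher and 6 at least 1.5-fold so. Their median ratio was 1.55, near the 1.45 of all listed genes, of which 45.7% were at least 1.5-fold higher and 5.04% lower. Arrb2, an arrestin gene, had 83 and 147 UMIs in all, with a ratio of 1.80 [1.37 to 2.39]. The receptor kinase genes Grk2, Grk3 and Grk6 were at 1.56, 1.22 and 1.68, and the Gα chaperone genes Ric8a and Ric8b at 1.14 and 1.15. In the phospholipase C arm, 7 of 8 listed genes were higher, 4 of them at least 1.5-fold, with a median ratio of 1.49, also near that of all listed genes. Itpr2, a calcium release channel of the ER, was at 4.53 on 20 and 89 UMIs, and Dgkz, which removes diacylglycerol, at 2.99 [2.57 to 3.50]. Prkcb, a protein kinase C gene, was the exception, at 0.685 and 0.356 UMIs per cell and a ratio of 0.519 [0.449 to 0.599].

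Of 20 genes that cyclic AMP can induce through CREB, 11 were listed in beta cells, all higher and 10 of them at least 1.5-fold. Of all listed genes, 45.7% were at least 1.5-fold higher and 5.04% were lower by any amount. The median ratio was 2.10 over the 11 and 1.45 over all listed genes. Fos went from 1.71 to 4.40 UMIs per cell, Egr1 from 1.12 to 2.89 and Irs2, which sustains insulin signalling in beta cells, from 0.172 to 0.318. Most of the 11 are immediate early genes, which many kinase pathways besides PKA can induce. The direction was not particular to beta cells. In delta cells 5 of the 20 were listed, all at least 1.5-fold higher (41.1% of listed delta-cell genes). In alpha cells 1 was listed, Egr1, with a ratio of 1.37.

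Outside beta cells the tables list 2 members, Rgs2 in alpha cells and Rgs2 and Rgs4 in delta cells, and each knockout mouse has a value of its own. The 3 tables come from the same 3 mice, so cell types share the control mouse. Rgs2 (ENSMUSG00000026360, chromosome 1, 143999338 to 144004161), whose product acts mainly on Gq and is known to be induced by cyclic AMP, had 0.648 UMIs per control alpha cell, and 0.151 and 0.220 in the knockout mice. Both knockout mice lay below the control. Their mean was 0.186 ± 0.0488 (SD, n = 2), a ratio of 0.287. Each mouse against the control gave 0.234 [0.160 to 0.336] and 0.340 [0.228 to 0.500]. Of the listed alpha-cell genes, 30.1% were at least 1.5-fold lower, and the median ratio of all listed alpha-cell genes was 0.816.

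In delta cells Rgs2 was lower as well, and Rgs4 was higher. Rgs2 had 1.03 UMIs per control cell, and 0.377 and 0.654 in the knockout mice, a mean of 0.515 ± 0.196 (SD, n = 2) and a ratio of 0.500. The knockout mice differed from each other beyond counting error, by a ratio of 1.74 [1.16 to 2.60], and both lay below the control, at 0.366 [0.257 to 0.515] and 0.635 [0.445 to 0.896]. Rgs4 had 1.90 UMIs per control cell, and 3.46 and 3.12 in the knockout mice, a mean of 3.29 ± 0.246 (SD, n = 2) and a ratio of 1.73. Both knockout mice lay above the control, at 1.82 [1.54 to 2.17] and 1.64 [1.35 to 1.99]. The background in delta cells was 41.1% of listed genes at least 1.5-fold higher and 16.0% at least 1.5-fold lower, with a median ratio of 1.34. Relative to that median, Rgs4 came to a log2 of 0.37, under the log2 of a 1.5-fold change.

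The ratio of Rgs4 was 1.73 in delta cells and 1.64 in beta cells, while its level in delta cells was 15.9% of that in beta cells in control and 16.8% in knockout mice. Iapp, a beta-cell hormone gene, had 1825 UMIs per control delta cell, and 797 and 698 in the knockout mice. It was lower in beta cells too, at 1781 and 935 UMIs per cell. The part of beta-cell RNA in the delta-cell Rgs4 values was not tested. Beside the lower Rgs2 of alpha cells, Ins1, Ins2 and Iapp summed to 434 UMIs per control alpha cell, and 251 and 304 in the knockout mice, and their part in these values was not tested. The alpha-cell markers Gcg and Ttr summed to 11.0 UMIs per control delta cell, and 163 and 66.1 in the knockout mice. In beta cells, the listed alpha-cell markers (4 of 7) summed to 61.6 and 154 UMIs per cell, the listed PP-cell markers (Ppy and Pyy, of which Pyy is also on the alpha list) to 21.7 and 107, and the red-cell globins (3 of 4) to 0.0639 and 22.6. The listed beta-cell markers (6 of 8) were all lower per knockout beta cell and summed to 22059 and 13364 UMIs per cell. In delta cells the listed delta-cell marker (1 of 6), Rbp4, had 137 UMIs per control cell, and 84.2 and 69.1 in the knockout mice. Gcg and Sst, the defining hormones of alpha and delta cells, were not analysed here within their own cell types, so that those names rest on the authors' tables. Ern1, the targeted gene, had 0.509 and 0.742 UMIs per beta cell, and "knockout" is used as the submitters' label.

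**Figure D4:**
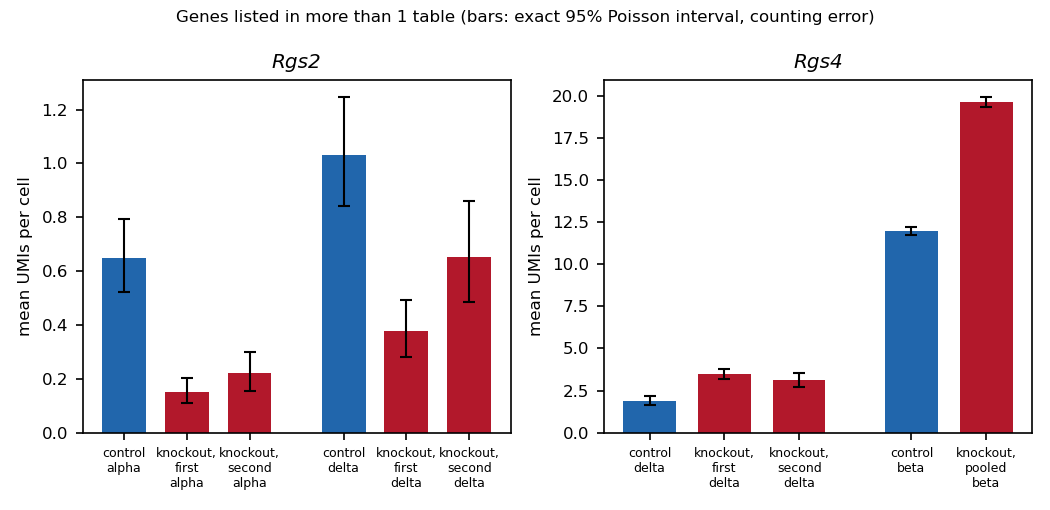
Mean UMIs per cell (vertical axes) of Rgs2 in alpha and delta cells and of Rgs4 in delta and beta cells, by control mouse and knockout mouse or, in beta cells, pooled knockout mice. Error bars are exact 95% Poisson intervals and cover counting error only; Rgs2 is below the control in each knockout mouse, and Rgs4 above it in delta cells of each and in pooled beta cells.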

How the data were processed

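Islet cells of 1 control and 2 knockout mice were profiled with 10X Genomics droplets, and the submitters' processing notes name Cell Ranger 3.0.0 and build mm10. The authors deposited, per cell type, a signal value per gene, which the values show to be mean UMIs per cell not scaled for depth: multiplied by 1 cell number per column, values came out whole within 0.001 for all genes, or 99.99% of them in control beta cells. For cell filters, doublet removal, cell typing and strand setting, the method is not given in the sources used here. The deposited p-values and q-values, computed from cells, served only to know which genes are listed (adjusted p up to 0.00998 for beta cells, 0.0101 for alpha cells and 0.0103 for delta cells). The alpha-cell header is shifted by 1 column. Knockout columns in alpha and delta cells carry a number that no label gives, and values are given in column order.

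Ratios are knockout over control with no pseudocount, from the unweighted mean of 2 mice in alpha and delta cells. A group with no UMI was set to 3 UMIs over its cells (3 members), which leaves out counting error in the other group. Intervals are exact 95% Clopper-Pearson limits on the share of a gene's UMIs found in the knockout. Droplet UMIs of 1 mouse are not independent replicates. Ratios and intervals were tested on simulated UMIs with counting error only, which the intervals assume. Spread between cells or mice was not simulated. Python 3.11.15, scipy 1.17.1 and GENCODE M21 coordinates (mm10) were used.

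Named members are those past a fold of 1.5, the 3 highest by control level per step and those listed in more than 1 cell type; others are named for completeness. The members and lists were chosen with earlier results of these data known. Alternatives were a fold of 2, 2 scalings to listed totals, centring on the median, a filter on level, a pseudocount, and leaving out each knockout mouse.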

Additional observations from a re-analysis of the deposited data

How the results depend on the processing

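The count of 33 beta-cell members at least 1.5-fold higher became 20 at a fold of 2, 21 with listed totals taken apart from Ins1, Ins2 and Iapp, 16 after centring on the median, 10 among members at or above the table's median level, and 17 with a pseudocount of 0.0519 UMIs per cell. It was 48 after scaling to the listed total. The count of lower members was 0, and 2 after centring (Gng4 and Prkar1a). The median log2 of the beta-cell members, 0.69, became 1.04 and 0.42 under these scalings, 0.15 after centring, 0.42 with the level filter and 0.49 with the pseudocount. Direction was kept by 53 of 55 members when scaled to the listed total, by 49 when the 3 hormone genes were left out of it, by 38 after centring and by 55 with the pseudocount.

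In alpha cells Rgs2 stayed at least 1.5-fold lower under each alternative, at log2 values from -2.10 to -1.56 without either knockout mouse and -1.18 with a pseudocount. In delta cells Rgs2 and Rgs4 kept their directions under each alternative. Neither was past a fold of 2 there (0 higher and 0 lower), and 0 members were 1.5-fold higher after centring. The median log2 of this delta-cell pair, -0.10, became 0.28 scaled to the listed total and -0.52 after centring. The level filter left no member in alpha or delta cells. No paired analysis was possible because the mouse labels give no numbers shared by the groups. Depth limits the rarest members: 3 had no control UMI, and spread between control mice was not measured.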
